A study of Mus musculus with 33 samples.

Results

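The hypoxia-inducible and glycolysis genes described here are 32 genes chosen by name: the hypoxia-inducible factor (HIF) subunits and their regulators, genes that HIF is known to switch on, glucose transporters, the enzymes of glycolysis and the lactate dehydrogenases. All probe sets annotated to these symbols on the array were taken. Of the 32 genes, 26 had at least 1 probe set of their own, 37 probe sets in all, among 8251 genes with 10833 such probe sets on the array. Egln3, Car9, Plod2, Gpi1 and Eno1 had none. Gapdh was present only on control probe sets and on 2 probe sets shared with other genes, and is described separately. In lung 29 of the 37 probe sets, of 24 genes, were bright enough to be tested. The 8 others were the only probe sets of Vhl and Pfkp and second probe sets of Arnt, Tfrc, Slc2a3, Hk2 and Ldhb, with signals of 1.0 to 96.4 in lung.

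HIF is the transcription factor through which cells sense low oxygen. Its alpha subunits, Hif1a and Epas1, are made all the time, and where oxygen is plentiful prolyl hydroxylases such as Egln3 mark them for destruction by the ligase that contains Vhl. In low oxygen the alpha subunits last, pair with Arnt and bind a short DNA motif with the letters CGTG near their target genes. Most of this control acts on the protein of the alpha subunits rather than on their RNA. Targets include Vegfa and nearly the whole of glycolysis, the pathway that yields ATP from glucose without oxygen. The fetal lung is filled with liquid and meets a low oxygen tension, and at birth it becomes the organ that meets air first.

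RNA of lung and liver of C57B/6J mice, whose labels read C57/BL, C57/Black or BL/57, was measured on 33 Affymetrix MGU74Av2 arrays, with 3 tissue samples of 1 array each in every one of 11 groups. Room air lungs cover day 21 of gestation, called F21, and the ages of 2, 6, 12 and 24 h. Lungs of 10% oxygen came from F21 fetuses whose dam had spent 12 h in 10% oxygen, and from newborns at 2 and 6 h whose dam gave birth in that atmosphere. The 3 liver groups, all of room air, have the ages F21, 2 h and 6 h. No group carries a transgene or deletion. In whole tissue, fewer cells of a type and less RNA per cell cannot be told apart. The labels mark no animal, litter or batch, so a p-value measures the spread between these samples. Each main fit takes a common spread for a probe set over all its groups. Signals spread wider in 10% oxygen than in room air. The p-values of comparisons with 10% oxygen can therefore be too small, and those within room air too large.

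Values are array signals on a linear scale, which cannot be compared between probe sets. The organ labels held for Sftpc, a surfactant protein of the lung, at 17961 to 60597 in lung and 35.6 to 125.6 in liver, and for Alb, the albumin made by liver, at 44095 to 56445 in liver and 7.4 to 2160 in lung. The value of 2160.0 belonged to the second F21 array of 10% oxygen, which also read 575.6 for the liver gene Apoa1, whereas the other lung arrays read at most 259 and 99 for these genes. This array stood apart, and the results that lost or gained a call without it are given below. The Gapdh 3' to 5' ratio, which rises as RNA is degraded, was 0.734 to 1.15 in room air lungs and 1.30 to 1.86 in liver. In 10% oxygen it was 1.21, 6.79 and 9.40 at F21, 3.01, 5.39 and 1.81 at 2 h, and 1.37, 5.83 and 4.72 at 6 h. On the actin control the same ratio was 1.195 to 1.96 in room air lungs and 1.27 to 2.68 in 10% oxygen, with overlap. In liver the actin ratio was 2.21 to 3.10. By Gapdh, itself a listed gene, all 9 arrays of 10% oxygen lay above every room air lung. RNA quality and oxygen level therefore cannot be fully told apart, and values from a fit with this ratio as a covariate, or with only the 3 arrays of 10% oxygen whose ratio was under 2, are given for named members where they end or make a call or move the value by over 1.5 times. The latter leaves 1 array of 10% oxygen at each time, which is assumed to vary like the other groups.

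Low oxygen was not accompanied by a common rise of these genes. Hif1a, the oxygen-regulated subunit itself, was lower in 10% oxygen at 2 h and 6 h. The collagen hydroxylase subunit P4ha2 and the transferrin receptor Tfrc were lower at F21 and 2 h, and the aldolase Aldoa at 6 h. A single probe set was higher, that of the pyruvate kinase Pkm at F21. The vessel growth factor Vegfa and the glucose transporter Slc2a1, both classical HIF targets, passed the test at none of the 3 times. With an adjusted p under 0.05 in limma, 1 of the 29 member probe sets was higher and 2 were lower at F21, when 7.13% of all 6931 probe sets tested had passed, 2.51% higher and 4.62% lower. At 2 h 4 members were lower and none higher, when 16.8% of all probe sets had passed, 7.76% higher and 9.08% lower. By 6 h 4 members were lower and none higher, when 5.8% of all probe sets had passed, 2.25% higher and 3.55% lower. Without adjustment, the members with p under 0.05 numbered 10, 7 and 9 at F21, 2 h and 6 h, against 22.4%, 31% and 22.4% of all probe sets. The groups did not overlap for 8, 10 and 9 members, against 26.6%, 37.6% and 25.2%. The median log2 difference of the members was 0.17 at F21, -0.35 at 2 h and -0.53 at 6 h, and that of all probe sets was -0.04, -0.06 and -0.04. Above 0 lay 16 of 29 members at F21, 10 at 2 h and 6 at 6 h, against 47.3%, 47% and 47.2% of all probe sets.

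**Figure D1:**
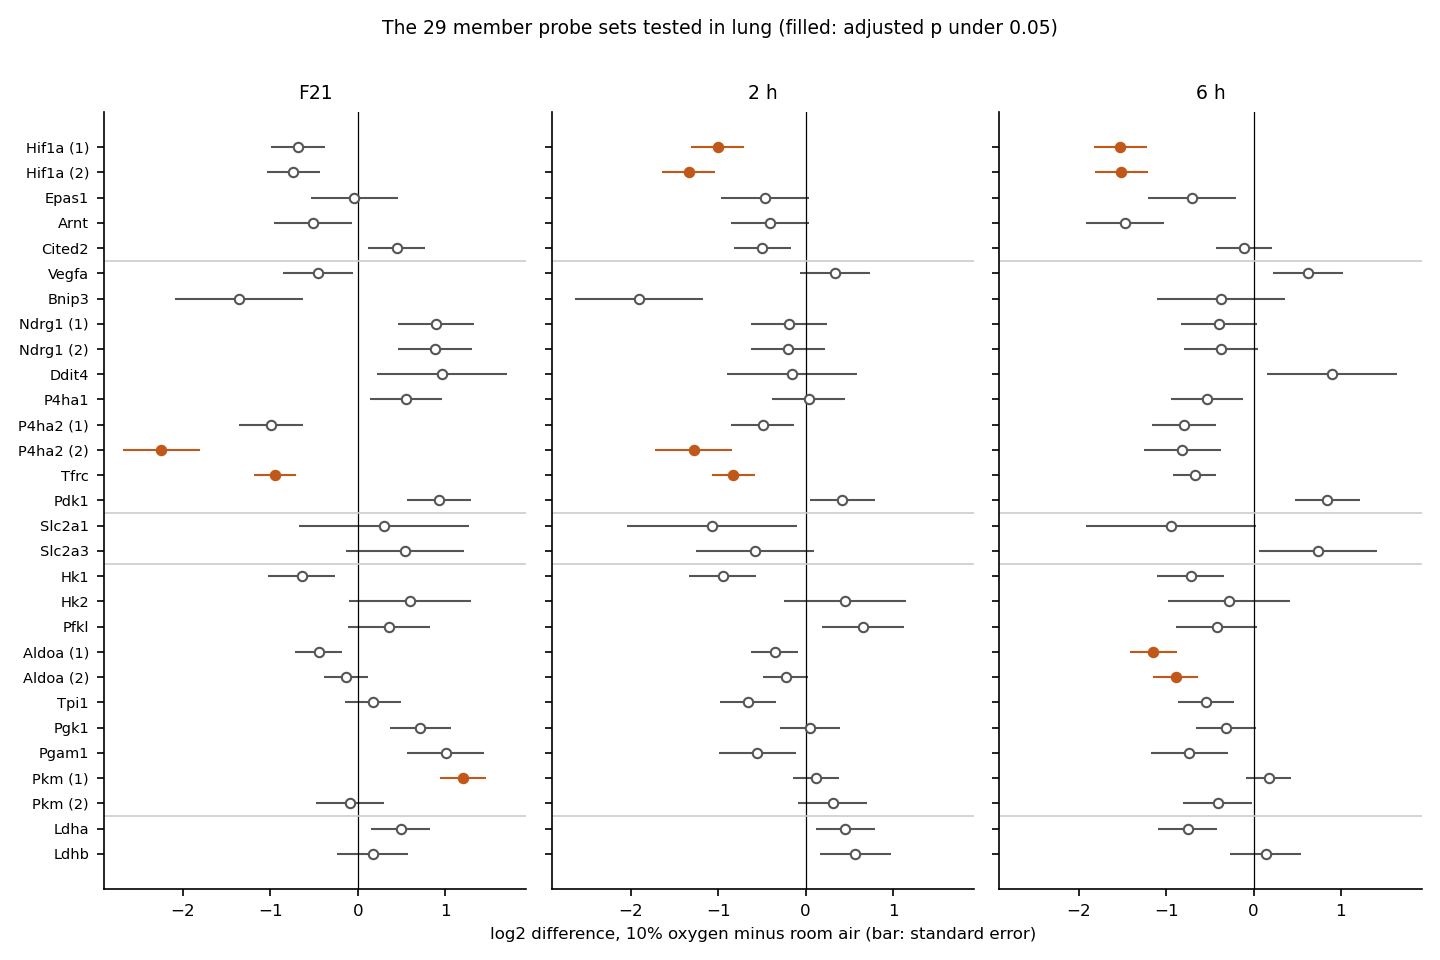
Log2 difference of each of the 29 tested member probe sets between lungs of 10% oxygen and of room air (x axis, with its standard error) at F21, 2 h and 6 h, ordered by role from the HIF subunits at the top to the lactate dehydrogenases at the bottom. Filled points passed an adjusted p of 0.05 in limma: 3 at F21, 4 at 2 h and 4 at 6 h.

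Hif1a was measured by 2 probe sets. On the first, the F21 arrays read 465, 425.5 and 792 in room air and 257, 375 and 395 in 10% oxygen. At 2 h they read 572, 519 and 679 in room air and 267, 359 and 259.5 in 10% oxygen, and at 6 h 1200.2, 669.9 and 527.5 and 205, 239.5 and 364. At each of the 3 times every lung of 10% oxygen lay below every lung of room air. The log2 difference was -0.68 at F21 (adjusted p = 0.188 in limma), -1.01 at 2 h (standard error 0.31, adjusted p = 0.0266) and -1.52 at 6 h (standard error 0.31, adjusted p = 0.00583). The second probe set read 598, 645 and 671.5 in room air and 229, 303 and 232 in 10% oxygen at 2 h. At 6 h it read 1056.5, 625 and 386 and 157, 245 and 284. Its groups did not overlap at any of the 3 times either, and its log2 differences were -0.74 (adjusted p = 0.15 in limma), -1.34 (adjusted p = 0.00411) and -1.52 (adjusted p = 0.00552). Both probe sets carry the suffix f of the array maker, for probes that can match more than 1 member of a sequence family. The same suffix is carried by both Aldoa probe sets and by the first probe sets of Pkm and P4ha2 described below.

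The call for Hif1a at 2 h on the second probe set held without any 1 of the 6 arrays, with a highest adjusted p of 0.0209, whereas that on the first was lost in 4 of the 6 fits. These were the fits without the first or the third room air array (adjusted p = 0.0664 and 0.107 in limma) and without the first or the third array of 10% oxygen (0.0763 and 0.0812). At 6 h both Hif1a calls were lost in limma without the first room air array alone, at -1.19 (adjusted p = 0.0536) and -1.15 (adjusted p = 0.0516), and in a fit of the 2 groups compared only. With the Gapdh ratio as a covariate the Hif1a differences at 6 h were -1.96 and -2.07, and that of the second probe set at F21 passed, at -1.40 (adjusted p = 0.0338 in limma), while the first was at -1.20 (adjusted p = 0.096). With the arrays of low ratio only, the F21 differences of Hif1a were -1.07 and -1.24, neither past the threshold, and the 2 h call on the first probe set was lost (-1.18, adjusted p = 0.0911 in limma).

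**Figure D2:**
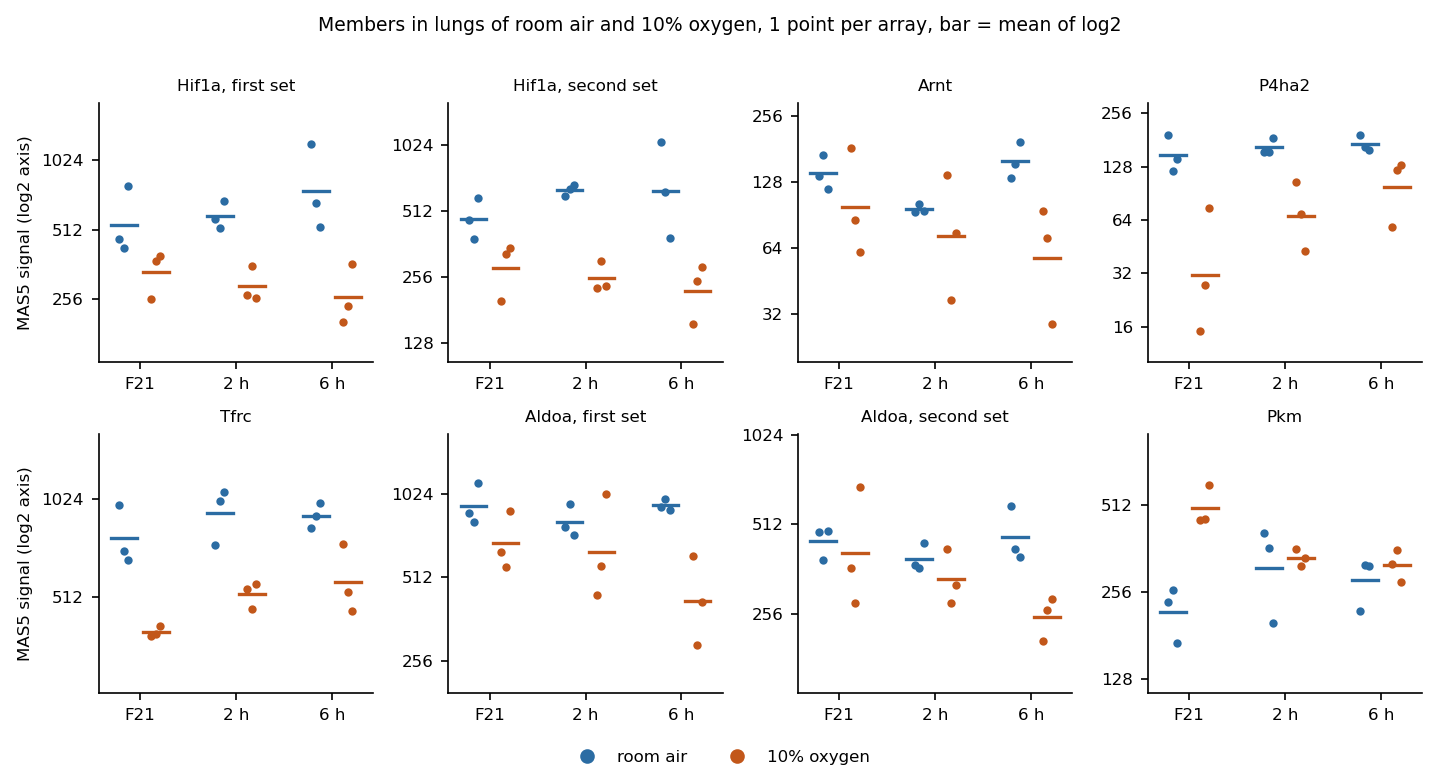
MAS5 signal (log2 axis, 1 point per array, bars at the mean of log2 signals) of 8 member probe sets in lungs of room air and of 10% oxygen at F21, 2 h and 6 h. The points of 10% oxygen lie below all those of room air for both Hif1a probe sets and for P4ha2 and Tfrc at each time, and above them for Pkm at F21 alone.

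The other HIF subunits and regulators did not pass. Over the 5 probe sets of this role, Hif1a included, the median log2 difference was -0.51 at F21, -0.49 at 2 h and -1.47 at 6 h, and at 2 h and 6 h none of the 5 lay above 0. Arnt, the stable partner of both alpha subunits, read 134, 155.5 and 195 in room air and 94.7, 70.8 and 28.7 in 10% oxygen at 6 h. Every array of 10% oxygen was the lower, and the log2 difference of -1.47 (standard error 0.45) had an adjusted p of 0.0522 in limma. It passed at -1.82 without the first array of 10% oxygen (adjusted p = 0.0276 in limma), and was -0.56 with the Gapdh ratio as a covariate and -0.75 with the array of low ratio only. Epas1, the alpha subunit abundant in endothelium and in type II cells, differed by -0.04, -0.47 and -0.70, and Cited2, which competes with the alpha subunits for their coactivators, by 0.45, -0.49 and -0.11, at F21, 2 h and 6 h.

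At F21 P4ha2 showed the largest difference of any member tested. This subunit of the collagen prolyl hydroxylase, on its second probe set, read 194, 122 and 141 in room air and 15.1, 27.6 and 74.7 in 10% oxygen at F21. At 2 h it read 156, 154 and 185 and 104, 69.6 and 42.6, and at 6 h 193, 165 and 160.0 and 58.2, 122 and 132. No array of 10% oxygen reached the lowest room air array of its time. The log2 difference was -2.25 at F21 (standard error 0.44, adjusted p = 0.00316 in limma), -1.28 at 2 h (adjusted p = 0.0475) and -0.82 at 6 h, which did not pass. At its first probe set P4ha2 differed by -0.99 at F21 (adjusted p = 0.0994 in limma), -0.49 at 2 h and -0.80 at 6 h (adjusted p = 0.194). At F21 this probe set passed without the third array of 10% oxygen (-1.41, adjusted p = 0.0297 in limma) and with the array of low ratio only (-2.02, adjusted p = 0.0109), and with the ratio as a covariate it was -1.59 at F21 and -1.30 at 6 h, without passing. The F21 call held without any 1 array (highest adjusted p 0.0263 in limma), and was lost in a fit of the 2 groups only (adjusted p = 0.0617). With the Gapdh ratio as a covariate the F21 difference of P4ha2 was -3.48, and with only the array of 10% oxygen of low ratio it was -3.31. The 2 h call was lost in 5 of 6 such fits, all but that without the first array of 10% oxygen, with adjusted p between 0.083 and 0.2 in limma, and without a filter on dim probe sets (0.0705). At 2 h it was -2.37 with the ratio as a covariate and -1.95 with the array of low ratio only, both past the threshold. P4ha1, the sister subunit, differed by 0.55, 0.03 and -0.53.

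Tfrc, which brings iron into cells, read 981, 709 and 665 in room air and 390.0, 395 and 419 in 10% oxygen at F21. The values were 739, 1007 and 1071 and 541.5, 472 and 559.5 at 2 h, and 833, 905 and 995 and 745, 531 and 465 at 6 h. The 3 arrays of 10% oxygen at F21 lay close together and well under room air, and the groups did not overlap at 2 h or 6 h either. The log2 difference was -0.95 at F21 (adjusted p = 0.0197 in limma), -0.83 at 2 h (adjusted p = 0.023) and -0.68 at 6 h (adjusted p = 0.103). At F21 the call was lost without the first room air array (-0.78, adjusted p = 0.123 in limma) and without the second array of 10% oxygen, the one with the high albumin signal (-0.94, adjusted p = 0.0514). At 2 h it was lost without the second or the third room air array or the second of 10% oxygen (adjusted p = 0.0699, 0.104 and 0.0743 in limma). With the Gapdh ratio as a covariate Tfrc differed by -0.63 and -0.54 at these times and passed at neither, nor with the arrays of low ratio only (-0.99 and -0.73, adjusted p = 0.142 and 0.208 in limma). The calls were also lost with quantile normalization at F21 (adjusted p = 0.0525) and with array weights at 2 h (0.0565). At 6 h the Tfrc difference was -0.41 with the covariate and -0.29 with the array of low ratio only.

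Pdk1, the kinase that keeps pyruvate out of the citric acid cycle, did not pass at any time. It read 93.2, 86.1 and 134 in room air and 149, 183.5 and 272.5 in 10% oxygen at F21, so that the groups did not overlap, with a log2 difference of 0.93 (adjusted p = 0.136 in limma) that was 0.29 with the Gapdh ratio as a covariate and 0.54 with the array of low ratio only. At 6 h it read 81.8, 81.8 and 45.9 and 65.6, 123 and 221, with a log2 difference of 0.85 (adjusted p = 0.177 in limma) that was 0.30 with the covariate and -0.04 with the array of low ratio only, but passed without the first array of 10% oxygen (1.29, adjusted p = 0.0386 in limma). Bnip3, which promotes the removal of mitochondria, read 128, 87.1 and 109 in room air and 56.8, 10.2 and 39.4 in 10% oxygen at 2 h. All 3 arrays of 10% oxygen were the lower, by -1.91 (standard error 0.73, adjusted p = 0.0751 in limma), and the call was gained without the first of them (-2.41, adjusted p = 0.0499).

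No other target passed, and the 10 target probe sets had median log2 differences of 0.05, -0.20 and -0.38 at F21, 2 h and 6 h. Ndrg1, a stress-responsive protein, differed by 0.89 at F21 on each of its 2 probe sets (adjusted p = 0.224 and 0.217 in limma), and on the second it read 182, 198 and 363 in room air and 263, 313 and 1002 in 10% oxygen. The groups overlapped, and the third array was the highest in each. On this probe set the difference was 0.28 without the third array of 10% oxygen, 0.02 with the Gapdh ratio as a covariate and 0.16 with the array of low ratio only. Vegfa read 279.7, 309.8 and 301 in room air and 282, 182 and 197.5 in 10% oxygen at F21, and 144, 160.0 and 115 and 233, 175 and 238 at 6 h. At 6 h all 3 arrays of 10% oxygen were the higher, yet the log2 differences of -0.45, 0.34 and 0.62 at F21, 2 h and 6 h all missed the threshold. Ddit4, an inhibitor of the growth kinase mTORC1, differed by 0.96, -0.15 and 0.90 with a standard error of 0.74.

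The glucose transporters passed in no comparison of oxygen levels, and their replicates lay far apart. Slc2a1 read 8.7, 13.4 and 99.9 in room air and 12.2, 13.0 and 158 in 10% oxygen at F21, with 1 bright array in each group. Its log2 differences were 0.30, -1.07 and -0.95, each with a standard error of 0.98, and those of Slc2a3 were 0.54, -0.58 and 0.74.

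The 10 glycolysis probe sets had median log2 differences of 0.27, -0.09 and -0.48, and 1 of the 10 lay above 0 at 6 h. Aldoa, the aldolase that splits the sugar into trioses, was lower in 10% oxygen at 6 h. Its first probe set read 919, 978.5 and 890.0 in room air and 608, 293 and 416 in 10% oxygen. The second read 589.9, 424 and 396 and 207, 262 and 286. On both, all arrays of 10% oxygen lay below those of room air. The log2 differences were -1.15 (standard error 0.27, adjusted p = 0.0153 in limma) and -0.89 (standard error 0.26, adjusted p = 0.039). At F21 and 2 h they were -0.45 and -0.35 on the first and -0.13 and -0.23 on the second, and did not pass. The first call was lost without the first or second room air array or the second of 10% oxygen (adjusted p = 0.0552, 0.0559 and 0.0712 in limma), in a fit of the 2 groups only (0.0593), with the Gapdh ratio as a covariate (-0.89, adjusted p = 0.125) and with the array of low ratio only (-0.61, adjusted p = 0.173). The second was lost in 5 of 6 fits, all but that without the third array of 10% oxygen, with adjusted p between 0.0533 and 0.173 in limma, and with quantile normalization, array weights or the 2 groups only (0.0861, 0.0649 and 0.0874).

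Pkm, the pyruvate kinase that ends glycolysis, gave different answers on its 2 probe sets. The first read 235, 259 and 170.4 in room air and 457, 459.8 and 602 in 10% oxygen at F21. All 3 arrays of 10% oxygen were the higher, at a log2 difference of 1.20 with a standard error of 0.26 (adjusted p = 0.00652 in limma), and the call held without any 1 array. The second read 567.5, 574 and 890.3 and 1409, 374 and 456. Here the first array of 10% oxygen was the highest of all 6 and the other two the lowest, and the log2 difference was -0.09 (adjusted p = 0.92 in limma). That first array had a Gapdh ratio of 1.21 and the other two 6.79 and 9.40. At 6 h the same probe set read 935.5, 264 and 597 in 10% oxygen, again highest where the ratio, 1.37, was lowest, against 5.83 and 4.72. The part of RNA quality in the difference between the Pkm probe sets was not tested. The call on the first was lost with the ratio as a covariate (1.10, adjusted p = 0.0954 in limma) and with the array of low ratio only (1.07, adjusted p = 0.143).

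The remaining glycolysis members passed in no comparison with room air. Pgam1, the phosphoglycerate mutase, read 283, 172 and 354 in room air and 351, 434 and 920.3 in 10% oxygen at F21, a log2 difference of 1.01 (adjusted p = 0.175 in limma). It was 0.59 without the third array of 10% oxygen, 0.19 with the Gapdh ratio as a covariate and 0.44 with the array of low ratio only. Pgk1, the phosphoglycerate kinase that makes the first ATP of the pathway, read 285, 258 and 434 and 322, 476 and 926, a log2 difference of 0.72 (adjusted p = 0.218 in limma) that was -0.07 with the covariate and 0.02 with the array of low ratio only. In both genes the groups overlapped and the third array of 10% oxygen was by far the highest. Hk1, the hexokinase that traps glucose, read 1572, 2868 and 1365.5 in room air and 1387, 862 and 712.5 in 10% oxygen at 2 h, a log2 difference of -0.95 (adjusted p = 0.0905 in limma) that passed with the ratio as a covariate, at -1.67 (adjusted p = 0.0139). Tpi1, the triose phosphate isomerase, read 494, 572 and 320.0 and 319.5, 281 and 253 at 2 h, without overlap, at -0.66 (adjusted p = 0.158 in limma), and passed with the covariate at -1.14 (adjusted p = 0.049). Hk2 and Pfkl differed by -0.42 to 0.66 over the 3 times.

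Ldha, which turns pyruvate into lactate, read 1524, 1330.1 and 771 in room air and 741, 401 and 1097 in 10% oxygen at 6 h, with overlap, a log2 difference of -0.75 (adjusted p = 0.187 in limma). At F21 and 2 h Ldha differed by 0.49 and 0.46. Ldhb, the heart form, differed by 0.17, 0.57 and 0.14.

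Gapdh, the central dehydrogenase of glycolysis, could be read only on probe sets with limits of their own. The probe set shared with related sequences read 862, 989 and 1267 in room air and 1840.1, 1998 and 3296 in 10% oxygen at F21. All 3 arrays of 10% oxygen were the higher, by log2 1.16 (adjusted p = 0.0062 in limma), and at 2 h by 0.77 (adjusted p = 0.0375), while at 6 h the difference was -0.11. The control probe set at the 3' end read 2425.5, 2748 and 3515 in room air and 4585, 3372 and 5052 in 10% oxygen at F21. At the 5' end of the same transcript the control read 2945, 2661 and 3697 and 3782, 497 and 537. The 3' end read higher in 2 of the 3 arrays of 10% oxygen than in any room air array, and the 5' end read far lower in 2 of the 3. At F21, whether Gapdh read higher or lower in 10% oxygen therefore depended on the end measured and on the array. The first array of 10% oxygen read above every room air array at both ends. At 6 h every array of 10% oxygen read below every room air array at both ends. The 3' end then read 1456 to 2030 against 2092 to 3171, and the 5' end 250 to 1477 against 2498.5 to 3040.

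**Figure D3:**
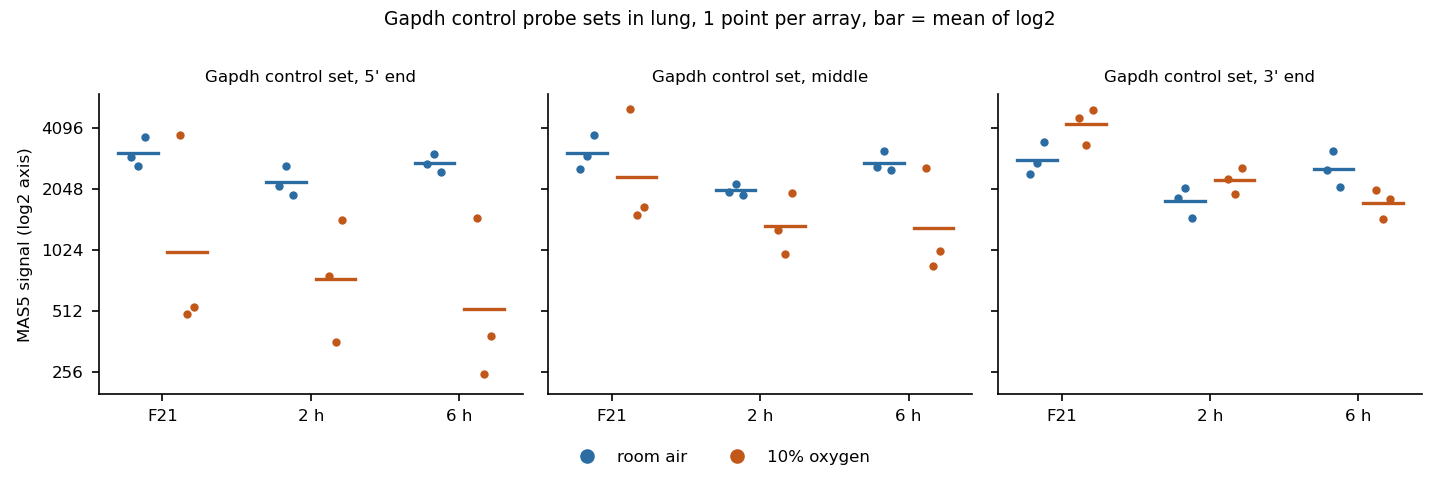
MAS5 signal (log2 axis, 1 point per array, bars at the mean of log2 signals) of the control probe sets at the 5' end, middle and 3' end of Gapdh in lungs of room air and of 10% oxygen at F21, 2 h and 6 h. At F21 2 of the 3 arrays of 10% oxygen read 497 and 537 at the 5' end, where room air read 2661 to 3697, whereas at the 3' end all 3 read between 3372 and 5052.

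Summed signals of other cell types moved with the groups, and a sum leans on its brightest probe sets. The summed signal of 6 lung epithelium probe sets was 23092 to 46019 in 10% oxygen and 52088 to 67646 in room air at F21, 47530 to 56762 and 30452 to 36237 at 2 h, and 53448 to 57557 and 69785 to 78766 at 6 h. That of 14 erythroid probe sets was 38322 to 59733 in 10% oxygen and 15787 to 20452 in room air at 2 h. Neutrophil sums at 6 h were 1655 to 1972 in 10% oxygen and 2450 to 3241 in room air, and endothelial sums were 4307 to 4922 and 4929 to 5308. At F21 the sum of 18 probe sets of proliferating cells was 3741 to 4639 in 10% oxygen and 2159 to 3042 in room air, and that of 7 skeletal muscle probe sets was 636 to 792 and 895 to 1261. Sums of hepatocyte and heart muscle markers overlapped at all 3 times, and no probe set of the lists was at 0. Median log2 differences were -0.962, 0.547 and -0.435 for lung epithelium at F21, 2 h and 6 h. They were 0.565 for proliferating cells at F21 and -0.391 for neutrophils at 6 h. Other medians did not bear out their sums: 0.062 for erythroid probe sets at 2 h, 0.227 for endothelium at 6 h and -0.026 for skeletal muscle at F21. The part of these cells in the member differences was not tested.

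Within 10% oxygen, glycolysis members and Ldha fell between F21 and 6 h after birth. The other lactate dehydrogenase, Ldhb, read 117, 131 and 83.4 at F21 and 167, 123 and 43.3 at 6 h, with overlap. By the test Pgam1, Ldha, Pgk1 and Tpi1 were lower at 6 h, and P4ha2 was higher. Of the 29 members 4 were lower and 1 higher at an adjusted p under 0.05 in limma, when 6.31% of all probe sets passed, 3.32% lower and 2.99% higher. All 10 glycolysis probe sets were lower at 6 h than at F21, with a median log2 difference of -0.98, against -0.02 over all probe sets. At an unadjusted p under 0.05, 13 of 29 members were lower, against 11.1% of all probe sets. At 2 h 1 member, Pgam1, was lower, when 2.65% of all probe sets had passed, 1.28% lower. The shared Gapdh probe set, not counted among the members, differed from F21 by -0.975 at 2 h (adjusted p = 0.0344 in limma). At 6 h it differed by -1.33 (adjusted p = 0.00228 in limma). The 2 h and 6 h comparisons share the F21 arrays, and the third of these was the highest for Pgam1, Ldha, Pgk1 and Tpi1. Summed cell type markers moved in the same comparison. The 18 probe sets of proliferating cells summed to 3741 to 4639 in F21 lungs but to 1288 to 1635 in 6 h lungs. Of these probe sets 8 were lower and none higher in limma. The sum of 6 lung epithelium probe sets was 23092 to 46019 and 53448 to 57557. Neutrophil sums were 804 to 1049 and 1655 to 1972, and endothelial sums 3954 to 4284 and 4307 to 4922. Their part in the fall of these enzymes was not tested.

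Pgam1 read 351, 434 and 920.3 at F21, 105, 167 and 196 at 2 h and 48.3, 139 and 188 at 6 h. All newborn arrays lay below all F21 arrays. It fell by 1.78 at 2 h on the log2 scale (adjusted p = 0.0283 in limma) and by 2.27 at 6 h (standard error 0.44, adjusted p = 0.0029). The 6 h call held without any 1 array, with a highest adjusted p of 0.0269, and that at 2 h was lost in 4 of 6 fits, with an adjusted p of 0.16 without the third F21 array, 0.0502 without the second, 0.106 without the first 2 h array and 0.0611 without the second in limma. With the arrays of low ratio only the fall of Pgam1 at 2 h was lost, at -0.84 (adjusted p = 0.565 in limma), and with array weights its adjusted p was 0.0697.

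Ldha read 1484.5, 1469.7 and 2361 at F21, 614, 906.5 and 1016 at 2 h and 741, 401 and 1097 at 6 h. Its newborn arrays also lay below all F21 arrays, and it fell by 1.33 at 6 h (standard error 0.34, adjusted p = 0.0181 in limma). The call was lost without the third F21 array (-1.10, adjusted p = 0.099 in limma) and without the second 6 h array (-0.94, adjusted p = 0.115). It was also lost with the arrays of low ratio only (-1.003, adjusted p = 0.302 in limma), with array weights (0.0774) and in a fit of the 2 groups only (0.0812).

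Pgk1 went from 322, 476 and 926 at F21 to 124, 234 and 376 at 6 h, and Tpi1 from 471, 428 and 917 to 165, 245 and 434. In both the highest 6 h array overlapped the F21 group. The log2 differences were -1.24 (adjusted p = 0.0319 in limma) for Pgk1 and -1.13 (adjusted p = 0.0337) for Tpi1. Without the third F21 array they were -0.82 (adjusted p = 0.197 in limma) and -0.79 (adjusted p = 0.194). Without the first 6 h array the adjusted p was 0.185 and 0.179 in limma, and without the second it was 0.0613 and 0.0858. The Pgk1 call was also lost without the second F21 array (adjusted p = 0.057). With the arrays of low ratio only the differences were -1.38 and -1.51 (adjusted p = 0.0644 and 0.0636 in limma), and both calls were lost with array weights (0.0903 and 0.127) and in a fit of the 2 groups only (0.205 and 0.182). The count of members past the threshold was 1 without the second 6 h array and 7 without the third.

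P4ha2 ran the other way, from 15.1, 27.6 and 74.7 at F21 to 58.2, 122 and 132 at 6 h. Its log2 difference was 1.64, with a standard error of 0.44 and an adjusted p of 0.0257 in limma, although the groups overlapped. The other probe set differed by 0.98 without passing (adjusted p = 0.111 in limma). The P4ha2 call was lost without the first or second F21 array (adjusted p = 0.137 and 0.0743 in limma) and without the second or the third 6 h array (0.0874 and 0.0797), with array weights (0.0863) and in a fit of the 2 groups only (0.341). The same gene was the member with the largest deficit in 10% oxygen at F21.

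**Figure D4:**
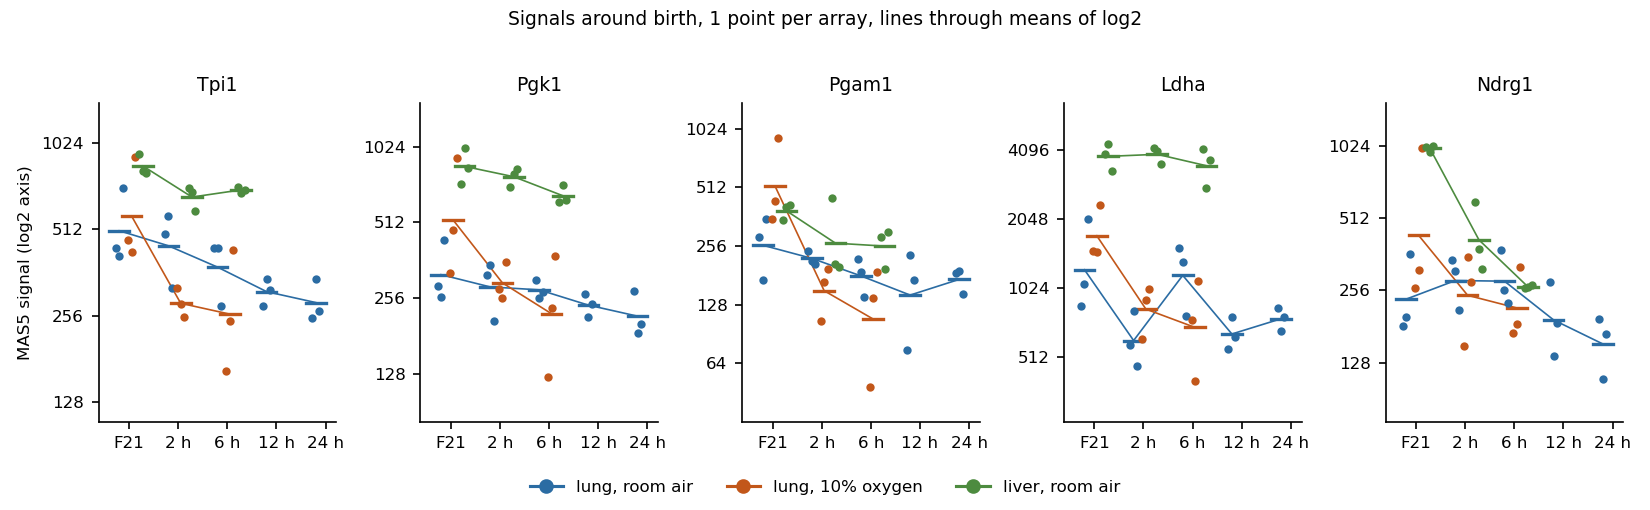
MAS5 signal (log2 axis, 1 point per array, lines through the means of log2 signals) of Tpi1, Pgk1, Pgam1, Ldha and the second Ndrg1 probe set against age, for lungs of room air, lungs of 10% oxygen and livers of room air. In 10% oxygen the 4 enzymes fell from F21 to 6 h, by log2 1.13 to 2.27, and Ndrg1 fell in liver, by 1.92 at 6 h.

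The promoters of these 4 enzymes are shown because the enzymes fell together in 10% oxygen, and because HIF sites in glycolytic promoters are well known. Each run is the 250 bases before the start of the transcript from RefSeq on GRCm38.p6, written 5' to 3' on the strand of the gene, with matches to the letters ACGTG or GCGTG, the forms of the HIF core motif searched, in capitals on either strand, where they read CACGT or CACGC. Tpi1 lies at chr6:124814159-124814408 on the minus strand, Pgk1 at chrX:106186850-106187099, Pgam1 at chr19:41911621-41911870 and Ldha at chr7:46845554-46845803, all on the plus strand.
Tpi1: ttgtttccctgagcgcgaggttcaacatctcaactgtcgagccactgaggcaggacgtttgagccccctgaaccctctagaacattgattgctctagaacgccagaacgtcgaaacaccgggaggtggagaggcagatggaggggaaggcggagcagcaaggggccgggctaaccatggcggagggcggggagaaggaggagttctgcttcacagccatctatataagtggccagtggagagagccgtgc
Pgk1: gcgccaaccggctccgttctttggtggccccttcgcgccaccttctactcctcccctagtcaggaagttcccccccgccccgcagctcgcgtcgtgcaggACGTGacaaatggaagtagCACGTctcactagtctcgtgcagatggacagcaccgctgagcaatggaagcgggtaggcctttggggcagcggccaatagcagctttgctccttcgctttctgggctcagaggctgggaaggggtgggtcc
Pgam1: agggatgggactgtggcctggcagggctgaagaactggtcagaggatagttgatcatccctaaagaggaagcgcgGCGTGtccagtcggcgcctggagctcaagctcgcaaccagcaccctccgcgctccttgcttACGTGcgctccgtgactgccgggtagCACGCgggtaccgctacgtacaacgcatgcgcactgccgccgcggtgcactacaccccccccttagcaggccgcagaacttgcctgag
Ldha: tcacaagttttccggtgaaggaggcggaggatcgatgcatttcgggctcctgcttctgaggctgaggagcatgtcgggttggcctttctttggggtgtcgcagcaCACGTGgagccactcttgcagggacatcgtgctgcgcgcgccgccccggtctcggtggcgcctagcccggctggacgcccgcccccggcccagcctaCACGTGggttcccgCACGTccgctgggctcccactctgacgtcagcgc

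Pgk1 held 2 matches, 150 and 131 bases before the start, and Pgam1 held 3, at 175, 114 and 88 bases. Ldha held 5, of which 4 form 2 copies of the palindrome CACGTG, counted once on each strand, and a second annotated start of Ldha held 1. Tpi1 held none in this window. Of the 32 genes 28 had promoter windows, all but Epas1, Ndrg1, Slc2a3 and Plod2. A match in at least 1 window was held by 25 of the 28, or 89.3%, against 41.5% of all 27025 genes. By window the share was 30 of 38, or 78.9%, against 38.6% of all 32851 promoter windows of that length. Many of these genes were listed because HIF is known to switch them on, so their higher share is no test of HIF control. A match is a description of letters and not evidence of binding.

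Member signals lay farther apart between lungs of the same group in 10% oxygen than in room air. The median SD of log2 signals over the 29 members was 0.73 at F21, 0.50 at 2 h and 0.70 at 6 h, where that over all probe sets was 0.42, 0.43 and 0.48. In room air it was 0.31 to 0.35 for members and 0.29 to 0.36 for all. The third F21 array of 10% oxygen was the highest of its group for 21 of 29 members, against 33.4% of all probe sets, and the third 6 h array for 22 of 29, against 34.9%. Among the 12 probe sets of glycolysis and lactate these counts were 9 and 8. Room air arrays also stood apart from their group. The third F21 array was the highest for 17 of 29 members, against 35.4% of all probe sets, and the first 6 h array for 16, against 33.4%. At 2 h the third array was the lowest for 11 of the 12 glycolysis and lactate probe sets, against 36.5%. The members are not independent of each other, and these counts are given without a test.

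**Figure D5:**
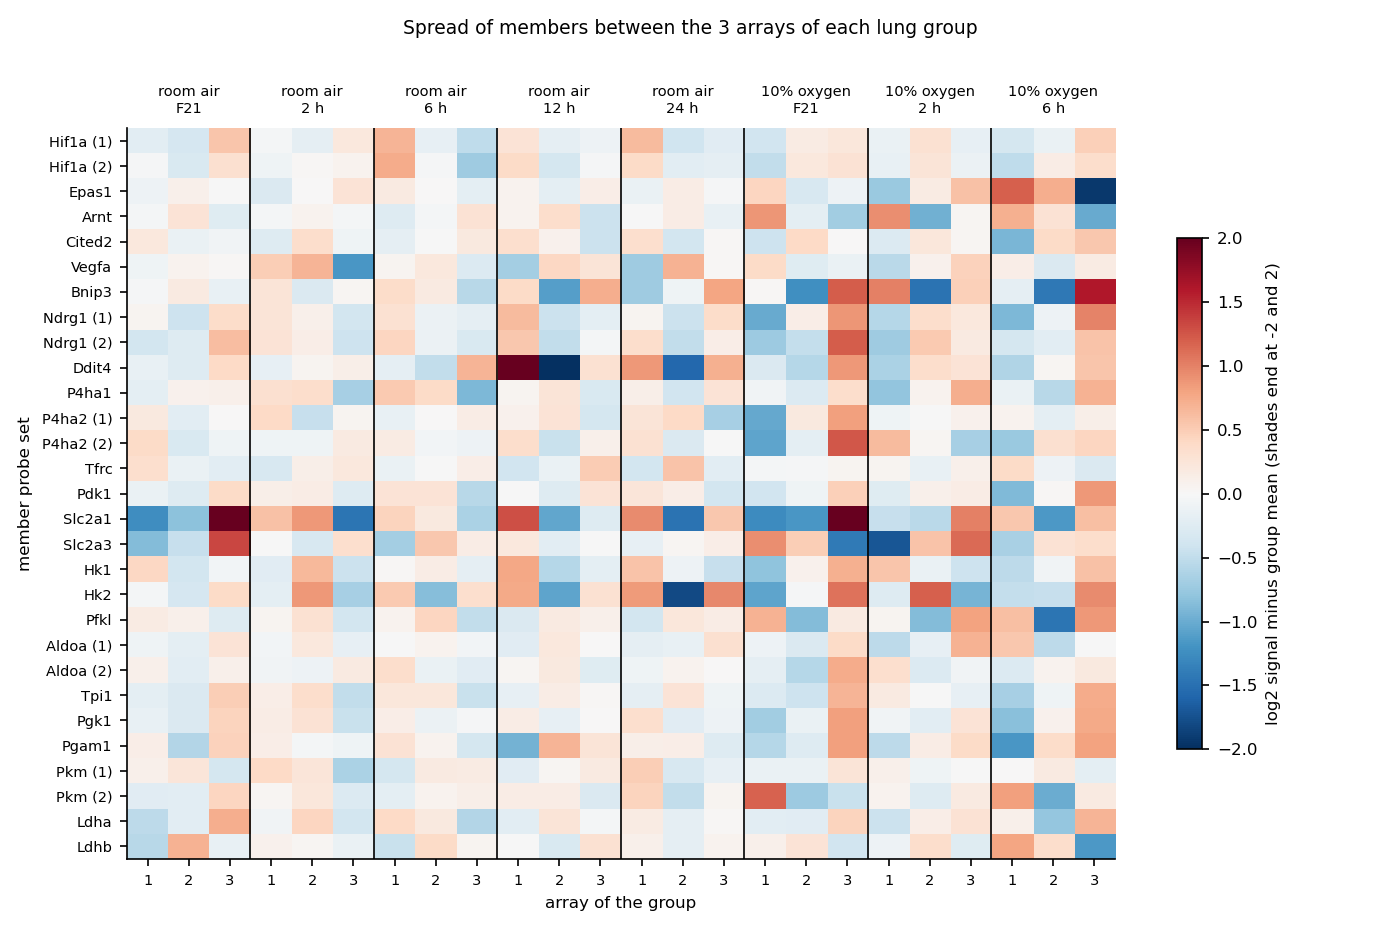
Log2 signal minus the mean of its group (color, shades end at -2 and 2) for each of the 29 tested member probe sets (rows) in the 3 arrays of each lung group (columns). In 10% oxygen the third array is the highest for 21 of 29 members at F21 and for 22 at 6 h.

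In room air no member passed the test after birth. With limma none of the 29 members passed at 2, 6, 12 or 24 h against F21, when 4.24%, 1.02%, 1.34% and 0.577% of all probe sets did. At an unadjusted p under 0.05 the members numbered 3, 3, 5 and 7, against 17.8%, 11.7%, 11.9% and 10.2% of all probe sets. The methods' test is the study's two-sample t-test, run here on the log2 signals of the probe sets tested here. The study chose its genes by detection p-value instead, so its counts are of another set. At the threshold of 0.01 without adjustment, the methods' test gave 1, 3, 3 and 2 members, against 6.69%, 4.36%, 3.82% and 2.22% of all probe sets. The 4 comparisons share the F21 arrays, of which the third read highest for Ldha.

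Ldha read 853.5, 1063 and 2041 at F21, 578, 810.2 and 469 at 2 h, 1524, 1330.1 and 771 at 6 h, 555, 768 and 628 at 12 h and 837, 664.5 and 760.3 at 24 h. The 2 h arrays lay below all F21 arrays, at log2 -1.02 (adjusted p = 0.0859 in limma), as did those of 12 h and 24 h, at -0.93 and -0.71. Vegfa read 279.7, 309.8 and 301 at F21, 215, 245 and 68.8 at 2 h and 144, 160.0 and 115 at 6 h, with log2 differences of -0.95 and -1.10 (adjusted p = 0.199 and 0.233 in limma) and no overlap. Slc2a3 went from 10.0, 13.3 and 46.1 at F21 to 74.8, 60.1 and 95.1 at 2 h, and all later room air arrays but 1 lay above the highest F21 value. Its log2 difference at 2 h was 2.04 (standard error 0.68, adjusted p = 0.0879 in limma). Epas1 read 66.9, 76.4 and 71.3 at F21 and 162, 197 and 173 at 24 h, a log2 difference of 1.31 (adjusted p = 0.305 in limma) without overlap.

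No member changed after birth in a different way in 10% oxygen than in room air by the test of that difference. In limma 0 of 29 passed at 2 h and at 6 h, when 0.476% and 0.0144% of all probe sets did. At an unadjusted p under 0.05 there were 2 members at 2 h and 8 at 6 h, against 13.1% and 8.58% of all probe sets. The largest at 6 h was Pgam1, which fell by 1.74 more in 10% oxygen (standard error 0.62, adjusted p = 0.408 in limma), followed by Ldha at -1.25 (adjusted p = 0.461). Calls in 10% oxygen and their lack in room air thus do not show that the changes differed.

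In liver Ndrg1 was the member that changed. Its second probe set read 1014, 965 and 1027 at F21, 599.9, 381 and 315 at 2 h and 261, 265 and 269 at 6 h. The arrays agreed closely at F21 and again at 6 h, and no newborn array reached the F21 group. Ndrg1 fell by 1.27 at 2 h (standard error 0.20, adjusted p = 0.0112 in limma) and by 1.92 at 6 h (standard error 0.20, adjusted p = 0.000458). The first probe set read 351, 522.5 and 527 at F21 and 123, 209.9 and 204 at 6 h and fell by 1.40 at 6 h (adjusted p = 0.0153 in limma), but was at -0.30 at 2 h (adjusted p = 0.722). Of 24 members tested in liver 1 passed at 2 h and 2 at 6 h, all lower, when 0.913% and 1.84% of all probe sets did, 0.263% and 0.949% of them lower. The 6 h call on the second probe set held without any 1 array, with a highest adjusted p of 0.00411. The 2 h call was lost without the third F21 array or the second or the third 2 h array (adjusted p = 0.0557, 0.0642 and 0.0528 in limma). The 6 h call on the first was lost without the second or the third F21 array or the first 6 h array (0.077, 0.0838 and 0.0566), without a filter (0.109) and with the Gapdh ratio as a covariate (0.0768). The 2 h call was also lost without a filter (0.0914).

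In room air lung the same Ndrg1 probe set read 182, 198 and 363 at F21 and 376, 257 and 226 at 6 h, with overlap. The change at 6 h was higher in lung than in liver by log2 2.17 (standard error 0.55, unadjusted p = 0.000409, adjusted p = 0.0979 in limma). No member passed that test at 2 h or 6 h, when 0.929% and 0.196% of all probe sets did, and 4 members had an unadjusted p under 0.05 at each time, against 12.5% and 8.66%.

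At F21 in room air the organs differed in many of these genes. Every liver array lay above every room air lung in the 3' to 5' ratio of both controls. The ranges were 1.30 to 1.86 against 0.734 to 1.15 for Gapdh, and 2.21 to 3.10 against 1.195 to 1.96 for actin. RNA quality and organ therefore cannot be fully told apart. Hif1a, Vegfa and Cited2 were higher in lung, and Ndrg1, Ldha and Pgk1 were higher in liver. Of 31 members tested over both organs, 6 were higher and 7 lower in lung, when 28% of all 7640 probe sets passed, 16% higher and 11.9% lower. Vegfa read 279.7, 309.8 and 301 in lung and 27.2, 89.1 and 50.5 in liver, a log2 difference of 2.58 (standard error 0.42, adjusted p = 1.54e-05 in limma). Hif1a read 465, 425.5 and 792 in lung and 120.5, 151 and 116 in liver on its first probe set, a log2 difference of 2.07 (adjusted p = 3.8e-06 in limma), and differed by 1.82 on the second (adjusted p = 2.08e-05). The lungs lay above every liver for both genes.

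Ldha read 853.5, 1063 and 2041 in lung and 3916, 4344 and 3301 in liver, a log2 difference of -1.64 (adjusted p = 0.000106 in limma). Ndrg1 differed by -2.09 (adjusted p = 8.95e-05), Pgk1 by -1.43 (adjusted p = 0.000587) and Cited2 by 1.21 (adjusted p = 0.00586 in limma), each without overlap. Pkm was higher in lung by 0.92 (adjusted p = 0.0106 in limma) on the probe set that rose in 10% oxygen at F21, and by 0.57 without passing on the other. The Pkm call was lost without the second F21 lung (adjusted p = 0.0584 in limma) or the second F21 liver (0.0804). The shared Gapdh probe set was lower in lung by -1.80 (adjusted p = 1.29e-07 in limma). The other 5 calls belonged to Slc2a3, the first Ndrg1 probe set, another Tfrc probe set and Tpi1, lower in lung, and Hk1, higher, with adjusted p from 0.0129 to 0.0478.

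Other genes of the pathway, from lists of HIF regulators, further HIF targets and further glycolysis genes, showed no common rise in 10% oxygen either. At F21 2.51% of all probe sets were higher and 4.62% lower. Among the regulators 1 of 10 probe sets was higher, Ube2s, a ubiquitin-conjugating enzyme, by 1.11 (adjusted p = 0.00924 in limma). Of 52 target probe sets 3 were lower, the endothelin Edn1 by -2.28 (adjusted p = 0.0141 in limma), the disulfide isomerase P4hb, which is also the beta subunit of the collagen hydroxylase, by -1.31 and the lipid droplet protein Plin2 by -1.25. None of 18 glycolysis probe sets passed.

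At 2 h 7.76% of all probe sets were higher and 9.08% lower. Of 52 target probe sets 2 were higher and 4 lower, among them the annexin Anxa2 by 0.83, the platelet-derived growth factor Pdgfb by 0.95, the oxidase Ero1a by -1.28 and P4hb by -1.23 (adjusted p = 0.00518, 0.035, 0.00789 and 0.0229 in limma). Of the regulators the hydroxylase Egln2 was higher by 0.77 and the coactivator Crebbp by 1.68, and the chaperone Hsp90aa1 was lower by -1.12 (adjusted p = 0.0193, 0.0248 and 0.011 in limma). Pfkfb3, which makes the activator of phosphofructokinase, was lower by -2.80 (standard error 0.56, adjusted p = 0.00168 in limma), and Gpd1, which makes glycerol phosphate, was higher by 1.42 (adjusted p = 0.0169).

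At 6 h P4hb and Ero1a were lower by -1.34 and -1.31 (adjusted p = 0.0303 and 0.0182 in limma), as was the transketolase Tkt by -0.97 (adjusted p = 0.0175), and no other probe set of these lists passed. Of all probe sets 2.25% were higher and 3.55% lower. The median of the targets was -0.07, -0.08 and -0.10 at F21, 2 h and 6 h, close to that of all probe sets.

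Between F21 and 6 h in 10% oxygen 8 of the 52 target probe sets, of 6 genes, rose and none fell, when 2.99% of all probe sets rose and 3.32% fell. Among them Edn1 rose by 3.27, Igfbp3, a binder of insulin-like growth factors, by 3.07, the cell cycle inhibitor Cdkn1a by 2.08 and the phosphatase Dusp1 by 2.05 (adjusted p = 0.000942, 0.0115, 0.00906 and 0.00538 in limma). In room air 4 rose and none fell at 6 h, when 1.02% of all probe sets passed in either direction, namely Dusp1 by 2.45, the metallothionein Mt1 by 1.99, Cdkn1a by 2.14 and Igfbp3 by 3.28. Their adjusted p lay between 0.00511 and 0.0212 in limma. At 2 h 3 targets rose in 10% oxygen, Edn1 by 2.56, Dusp1 by 2.68 and the transcription factor Fos by 3.75, and in room air Dusp1 rose by 3.13 and the glycogen-targeting subunit Ppp1r3c fell by 2.52. Of all probe sets 1.37% rose at 2 h in 10% oxygen, and in room air 1.47% rose and 2.77% fell. At 12 h in room air Igfbp3 and Angptl4, an inhibitor of lipoprotein lipase, rose by 2.85 and 2.02, and at 24 h limma passed none of the 52. Of all probe sets 0.88% rose at 12 h and 0.462% fell. Of the other glycolysis genes Tkt alone passed after birth, falling by 0.80 at 6 h in 10% oxygen, and no other regulator passed.

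In liver Angptl4 rose by 1.40 at 2 h and 1.32 at 6 h, the copper carrier Cp rose by 0.72 and Anxa2 fell by 1.11 at 6 h, of 32 target probe sets tested. Of all probe sets 0.65% rose at 2 h, and at 6 h 0.896% rose and 0.949% fell. Between the organs at F21, 13 of 54 target probe sets were higher and 9 lower in lung, 3 of 21 other glycolysis probe sets were higher and 9 lower, and 2 of 10 regulators were lower. Of all probe sets 16% were higher and 11.9% lower in lung. The targets with the smallest adjusted p were Igfbp1, a binder of insulin-like growth factors made by liver, at -8.96, the trefoil factor Tff3 at -6.99, Cp at -3.34 and the epithelial keratin Krt19 at 4.06.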

How the data were processed

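Per the study's methods, RNA of 24 lung and 9 liver samples was hybridized to MGU74Av2 arrays, and the authors deposited MAS5 signal intensity values, scaled on each chip to a target intensity of 100. Detection calls were not used here. After removal of 66 control probe sets, values below a floor of 10 were raised to it and put on the log2 scale. A probe set was tested if it lay in the top 40% of signals in at least 3 arrays of the fit. Groups were compared with limma 3.58.1 in R 4.3.3 (lmFit and eBayes with trend), in 1 fit each for lung (16 residual degrees of freedom), for liver (6) and for both (22), with Benjamini-Hochberg adjustment over all probe sets tested and a threshold of 0.05. The fits were tested on simulated data. Figures were drawn with matplotlib 3.10.9.

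Genes were named from the platform annotation (10855 probe sets with 1 symbol, 396 with several, 1237 with none). Members past the threshold are named, in the oxygen comparisons also those with an unadjusted p under 0.05, and elsewhere at most 8 members; of the other pathway lists, at most 4 genes a comparison. Members and lists were chosen with earlier results of these data known. Alternatives were another floor, pseudocount, filter or normalization, array weights, a replicate block, the Gapdh ratio as a covariate, fewer groups, the methods' test, and leaving out each array. Leaving out the 6 arrays of 10% oxygen with a Gapdh ratio above 2 was added after seeing the data. Promoters came from RefSeq.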

Additional observations from a re-analysis of the deposited data

How the results depend on the processing

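Each comparison had 3 arrays a group, and their number limits the precision. All 9 lungs of 10% oxygen had a Gapdh 3' to 5' ratio above every room air lung, although the actin ratios overlapped. By Gapdh, RNA quality and oxygen level could be separated only through the spread within 10% oxygen, and the ratio fit leans on few arrays. Probe sets dim in every group, such as those of Vhl and Pfkp, could not be tested. Over all alternatives 234 counts of members past the threshold lay within 1.5 times the count reported and 61 did not. Of the single values 637 kept their direction and side of the threshold, 127 lost the call, 17 gained one and 3 turned, namely Pkm at F21 on its other probe set (-0.09), Pgk1 at F21 with the Gapdh ratio as a covariate (-0.072) and Pdk1 at 6 h with only the arrays of low ratio (-0.041). The cause was not tested.

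The counts moved as follows. Shares of all probe sets are given for the methods' test only. In 10% oxygen against room air that test passed 5.21%, 9.68% and 4.88% at F21, 2 h and 6 h at 0.01. After adjustment it passed 0.0433%, 1.43% and 0%. Within 10% oxygen it passed 2.73% and 3.13% at 2 h and 6 h at 0.01, and 0% after adjustment. For all other settings, a moved count alone does not set members apart from a change over all probe sets. In 10% oxygen against room air, the 3 members at F21 became 0 under the methods' test after Benjamini-Hochberg adjustment, and P4ha2 did not pass that test at 0.01 either. The 4 at 2 h became 8 with the Gapdh ratio as a covariate, 2 under the methods' test at 0.01 and 1 after adjustment. At 0.01 neither Tfrc nor P4ha2 kept its 2 h call. The 4 at 6 h became 0 in a fit of the groups compared only, 1 under the methods' test at 0.01 and 0 after adjustment. That 1 was the first P4ha2 probe set, which limma had not passed. Neither the Hif1a nor the Aldoa probe sets passed the methods' test at 6 h. In room air lung, where limma passed 0, array weights gave 3 at 2 h, 2 at 12 h and 2 at 24 h, a fit with no other groups gave 1 member at 2 h, 1 at 6 h and 1 at 12 h, and the methods' test gave 1, 3, 3 and 2 at 2, 6, 12 and 24 h. In 10% oxygen against F21, the 1 at 2 h became 0 with array weights, 2 with the ratio, 0 with arrays of low ratio only and 0 after adjustment of the methods' test. The 5 at 6 h became 1 with array weights, 1 with the groups compared only, 3 with arrays of low ratio only and 0 under the methods' test at either threshold. In liver, the 1 at 2 h became 0 without a filter and under the methods' test at either threshold, and the 2 at 6 h became 1 without a filter, with the ratio, and under the methods' test at either threshold. That test passed 3.11% and 3.71% of all probe sets in liver at 2 h and 6 h at 0.01. After adjustment it passed 0% and 0.369%. The 13 between organs at F21 became 7 under the methods' test at either threshold. Of all probe sets 18.6% then passed at 0.01 and 17.7% after adjustment. For the change in lung minus that in liver, array weights gave 1 at 2 h and 1 at 6 h, and the groups compared only gave 1 at 6 h. The methods' test was not run for differences between changes, for which it is not defined.

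Leaving out each array in turn gave 2 to 4 members for oxygen at F21, 1 to 4 at 2 h (1 without the third room air 2 h array), 0 to 5 at 6 h (0 without the first room air 6 h array), 0 to 2 and 1 to 7 within 10% oxygen at 2 h and 6 h, 0 to 2 and 1 to 2 in liver, 8 to 12 between organs (8 without the second F21 liver), and 0 to 0 in the other comparisons. Sample numbers did not pair the samples. Deviations of same-numbered lungs correlated at -0.152 to 0.275 (median 0.002), above 0.1 in 5 of 84 pairs, and in liver at -0.015 to 0.095. With the number as a replicate block the counts were 3, 4 and 5 for oxygen at F21, 2 h and 6 h, 0 in room air, 1 and 5 within 10% oxygen, 1 and 2 in liver, 11 between organs and 0 for the differences between changes. Under that block P4ha2 at 2 h was lost (adjusted p = 0.0549 in limma), and Bnip3 at 2 h and Arnt at 6 h passed (0.0452 and 0.0454).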
